A study of Arabidopsis thaliana with 12 samples.

Results

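VSP1 (AT5G24780), VSP2 (AT5G24770), CORI3 (AT4G23600), TAT3 (AT2G24850) and CLH1 (AT1G19670) are genes of Arabidopsis that have long served as markers of wounding, jasmonate and coronatine treatment. They were chosen by name, by their locus in the deposited table, and are 5 of the 33602 genes listed there. No measured value entered this rule, but the genes were chosen with earlier results of these data known. The study had named VSP2 among the genes that rose in jazQ but not in jazQ mycT. All 5 passed the filter on low counts. Their RNA was measured by sequencing in whole seedlings, roots included, that had grown for 8 d in continuous light on solid medium with sucrose and without added jasmonate. There were 4 genotypes with 3 libraries each, and about 200 seedlings were pooled for each library. jazQ mycT carries mutations in 8 genes, jazQ in the 5 repressor genes JAZ1, JAZ3, JAZ4, JAZ9 and JAZ10, and mycT in the 3 transcription factor genes MYC2, MYC3 and MYC4, while Col-0 is the wild type and the background of all mutants. The jazQ and Col-0 libraries were taken over from an earlier series, and the study's methods state that all lines were grown and processed in parallel. Mutant and wild-type seedlings shared plates.

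Jasmonoyl-isoleucine, the active jasmonate, joins the F-box protein COI1 to JAZ repressors, which are then degraded. JAZ proteins hold MYC2 and its relatives MYC3 and MYC4 in check, so that wounding, through jasmonate, sets these factors free to activate genes of defence. Coronatine, a toxin of Pseudomonas bacteria, mimics jasmonoyl-isoleucine, and CORI3 is named for its induction by it. VSP1 and VSP2 encode vegetative storage proteins related to acid phosphatases, which leaves accumulate after wounding. CORI3, also called JR2, belongs to the tyrosine aminotransferase family and encodes a cystine lyase. TAT3 encodes another member of that family. CLH1 encodes a chlorophyllase, an enzyme that removes the phytol tail of chlorophyll.

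The deposited counts summed to between 12336090 and 26347184 per library. All 15 root and 12 shoot markers were above 0 in every library. The root markers summed to between 138 and 156 TPM (the deposited transcript level, corrected for transcript length and library depth) in jazQ mycT. Those sums were 160 to 173 TPM for jazQ, 165 to 184 TPM for mycT and 169 to 183 TPM for Col-0. Counts on JAZ1 were at 4.25 to 5.34 TPM in jazQ mycT and 4.65 to 6.05 TPM in jazQ, against 32.3 to 46.5 TPM in mycT and 44.2 to 60.0 TPM in Col-0, while counts on the disrupted JAZ3 and JAZ10 were higher in both lines with jaz mutations (log2 fold changes of 4.24 to 6.36 against Col-0). Counts on JAZ4 were lower in jazQ (1.95 to 2.86 TPM) than in Col-0 (4.77 to 6.29 TPM). Those on JAZ9 overlapped (86.8 to 89.6 TPM in jazQ, 65.2 to 93.0 TPM in Col-0). In mycT, counts on MYC2 were lower (log2 fold change −0.55) and those on MYC3 (−0.12) and MYC4 (0.23) were not called. In jazQ mycT, MYC2 (22.1 to 23.9 TPM) and MYC3 (52.8 to 59.4 TPM) overlapped Col-0 (23.7 to 29.0 and 46.1 to 56.9 TPM). MYC4 lay above Col-0 there (25.9 to 28.7 against 18.9 to 22.1 TPM). The counts thus check the jaz labels more firmly than the myc labels.

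VSP1 and VSP2 lie close together on chromosome 5, at 8507590 to 8509201 and 8500468 to 8502224 in TAIR10.1, both on the minus strand and both with 3 exons, and AT5G24775, annotated between them, had no count in any library. CORI3 lies on chromosome 4 at 12310379 to 12313212 on the plus strand with 7 exons. TAT3 lies on chromosome 2 at 10582074 to 10585216 on the minus strand with 7 exons. CLH1 lies on chromosome 1 at 6803486 to 6805092 on the minus strand with 2 exons, 179.8 kb from the mutated JAZ1. No other marker gene was closer than 2375 kb to a mutated gene.

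MYC factors bind the G-box CACGTG and close variants, so the bases before the annotated starts of the 4 genes that rose in jazQ are shown, read 5′ to 3′ on the strand of each gene from the RefSeq TAIR10.1 sequence. Each run is the 250 bases before the gene at chr5:8509202-8509451 for VSP1, chr5:8502225-8502474 for VSP2, chr4:12310129-12310378 for CORI3 and chr1:6805093-6805342 for CLH1. Capitals mark a match, on either strand, to the G-box CACGTG, to the close variant CACATG, or to the further variant AACGTG.
VSP1: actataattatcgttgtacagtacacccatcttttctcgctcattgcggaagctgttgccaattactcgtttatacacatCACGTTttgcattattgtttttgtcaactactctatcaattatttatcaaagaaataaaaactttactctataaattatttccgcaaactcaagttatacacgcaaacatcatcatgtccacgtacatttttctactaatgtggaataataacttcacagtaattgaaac
VSP2: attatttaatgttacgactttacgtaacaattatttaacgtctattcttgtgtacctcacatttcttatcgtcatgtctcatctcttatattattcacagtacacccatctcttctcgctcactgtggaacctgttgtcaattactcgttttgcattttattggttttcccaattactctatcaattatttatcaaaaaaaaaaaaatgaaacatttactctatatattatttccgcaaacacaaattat
CORI3: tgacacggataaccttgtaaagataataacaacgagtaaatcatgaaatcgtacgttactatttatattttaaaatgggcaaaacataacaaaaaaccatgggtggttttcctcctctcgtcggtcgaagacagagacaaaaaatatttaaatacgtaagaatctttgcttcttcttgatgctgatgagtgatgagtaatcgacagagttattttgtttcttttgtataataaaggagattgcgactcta
CLH1: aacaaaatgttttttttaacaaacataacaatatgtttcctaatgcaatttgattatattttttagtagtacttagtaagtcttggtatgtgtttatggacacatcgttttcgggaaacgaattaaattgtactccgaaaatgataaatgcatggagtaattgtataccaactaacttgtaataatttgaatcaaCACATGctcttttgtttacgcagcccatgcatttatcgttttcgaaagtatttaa

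CACGTG was absent from these 250 bases in all 5 marker genes, and it occurred in 6.49% of the windows of the same length before 27443 protein-coding genes. AACGTG, whose other strand reads CACGTT, was found once, 170 to 165 bases before VSP1, and occurred before 7.54% of all genes. CACATG was found 55 to 50 bases before CLH1 and 111 to 106 bases before TAT3, and before 11.1% of all genes. At least 1 of the 3 motifs stood before 3 of the 5 marker genes and before 22.7% of all genes. Within 1000 bases the same 3 genes held a motif, against 58.5% of all genes. The upstream runs of VSP1 and VSP2 aligned over 146 bases with 131 identical (89.7%), from 233 to 73 bases before VSP1 and from 154 to 1 bases before VSP2, and 4 of the 6 bases of the VSP1 motif had a partner in VSP2. Such matches describe the letters of these windows and were not measured as binding sites.

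VSP1, the more abundant of the VSP genes, was at 28.8, 30.8 and 22.7 TPM in jazQ mycT, 77.5, 66.6 and 23.9 TPM in jazQ, 17.3, 22.5 and 20.6 TPM in mycT, against 11.4, 22.6 and 22.0 TPM in Col-0 (replicates 1, 2 and 3). The jazQ libraries were all above the Col-0 libraries, but jazQ replicate 3 stood 1.33 TPM above the highest of them and inside the range of jazQ mycT. The means were 27.4 ± 4.18, 56.0 ± 28.3, 20.1 ± 2.61 and 18.7 ± 6.31 TPM in jazQ mycT, jazQ, mycT and Col-0 (SD, n = 3 each). Of the neighbours in level, the differences of jazQ and jazQ mycT, of jazQ mycT and mycT, and of mycT and Col-0 did not pass the test.

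VSP2 was at 5.17, 5.49 and 5.55 TPM in jazQ mycT, 46.3, 34.9 and 7.95 TPM in jazQ, 2.00, 3.03 and 2.87 TPM in mycT, against 1.39, 4.13 and 2.43 TPM in Col-0. Every jazQ library lay above every library of the other genotypes. The 3 jazQ mycT libraries were close together and above all mycT and Col-0 libraries, although neither step passed the test. The means were 5.40 ± 0.204, 29.7 ± 19.7, 2.63 ± 0.554 and 2.65 ± 1.38 TPM in jazQ mycT, jazQ, mycT and Col-0 (SD, n = 3 each).

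CORI3 was at 16.6, 22.1 and 20.6 TPM in jazQ mycT, 52.2, 53.8 and 27.9 TPM in jazQ, 8.74, 13.8 and 9.68 TPM in mycT, against 14.5, 22.6 and 15.6 TPM in Col-0. It was highest in jazQ, and mycT was the lowest genotype, with no mycT library reaching the lowest Col-0 library. The means were 19.7 ± 2.86, 44.7 ± 14.5, 10.7 ± 2.69 and 17.6 ± 4.40 TPM in jazQ mycT, jazQ, mycT and Col-0 (SD, n = 3 each). The libraries of jazQ mycT and Col-0 overlapped.

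TAT3 had the largest SD of the log2 level of the 5 genes in every genotype, at 7.20, 10.3 and 3.92 TPM in jazQ mycT, 33.8, 21.0 and 5.04 TPM in jazQ, 5.53, 6.77 and 8.83 TPM in mycT, against 5.67, 1.71 and 9.66 TPM in Col-0. The jazQ libraries 1 and 2 exceeded all others, whereas jazQ replicate 3 fell inside the ranges of jazQ mycT and Col-0. The means were 7.13 ± 3.17, 19.9 ± 14.4, 7.04 ± 1.67 and 5.68 ± 3.98 TPM in jazQ mycT, jazQ, mycT and Col-0 (SD, n = 3 each). The value in Col-0 replicate 2 rested on 28 counts, the fewest of any marker gene in any library.

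CLH1 had the smallest SD of the log2 level in every genotype, at 14.5, 17.1 and 16.7 TPM in jazQ mycT, 25.3, 26.1 and 20.7 TPM in jazQ, 13.1, 14.7 and 12.7 TPM in mycT, against 12.3, 16.9 and 14.7 TPM in Col-0. The jazQ libraries stood apart from all others, and the remaining 3 genotypes overlapped. The means were 16.1 ± 1.40, 24.0 ± 2.94, 13.5 ± 1.02 and 14.6 ± 2.30 TPM in jazQ mycT, jazQ, mycT and Col-0 (SD, n = 3 each).

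**Figure D1:**
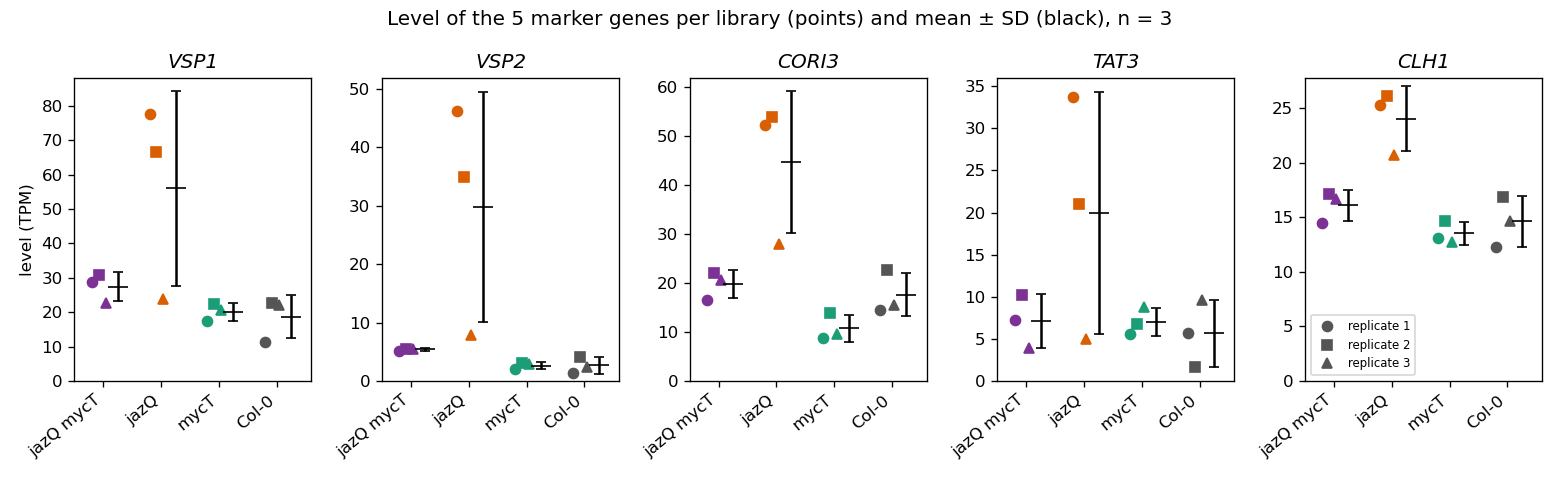
Level of each marker gene in TPM (y axis, from 0) in jazQ mycT, jazQ, mycT and Col-0 (x axis), with 1 point per library shaped by replicate number and the mean ± SD of 3 libraries in black. The mean of jazQ is the highest for each gene, and jazQ replicate 3, the triangle, is the lowest of the 3, at 7.95 TPM for VSP2 against 46.3 and 34.9 TPM in the other jazQ libraries.

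On the TPM scale, which allows levels of different genes to be set side by side, VSP2 had the lowest mean of the 5 genes in Col-0 (2.65 TPM) and the third highest in jazQ (29.7 TPM). The share of VSP2 in the summed TPM of both VSP genes was 15.2%, 15.1% and 19.6% in jazQ mycT, 37.4%, 34.4% and 24.9% in jazQ, 10.3%, 11.9% and 12.2% in mycT, and 10.9%, 15.5% and 9.94% in Col-0. All jazQ shares lay above those of the other genotypes. The coding sequences of VSP1 and VSP2 were identical at 714 of 798 aligned bases (89.5%). Of the 50-base windows of their transcripts, the length of the reads, 5 of 1269 in VSP1 and 5 of 1459 in VSP2 were identical between the genes, and 192 (15.1% and 13.2%) matched with up to 2 mismatches, so part of the reads could have been split between them by the counting. CORI3, TAT3 and CLH1 shared no identical window with another gene of their families, and windows with mismatches were not counted for them. The fewest reads of each gene, and the differences between libraries of 1 genotype, set the precision of these values, and in whole seedlings more RNA per cell cannot be told apart from more cells that express a gene.

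Whether loss of the 5 JAZ repressors changes the markers in unwounded seedlings was asked by comparing jazQ with Col-0. VSP2, VSP1, CORI3 and CLH1 rose in jazQ, by 12.1-fold, 3.08-fold, 2.56-fold and 1.66-fold, and TAT3 had a 3.45-fold higher estimate that did not pass the test. Thus 4 of 5 marker genes were called higher and 0 lower, where 1.75% of the 20888 genes tested were called higher and 1.11% lower. A call is a Benjamini-Hochberg adjusted p under 0.05 over all genes tested in edgeR's quasi-likelihood test on the counts. The log2 fold change of VSP2 was 3.60 (SE 0.54, edgeR adjusted p = 0.0032). For VSP1 it was 1.62 (SE 0.37, edgeR adjusted p = 0.0363) and for CORI3 1.35 (SE 0.23, edgeR adjusted p = 0.00843). CLH1 had the smallest change and the second smallest adjusted p, with a log2 fold change of 0.73 (SE 0.12, edgeR adjusted p = 0.00544). For TAT3 the estimate was 1.78 with an SE of 0.60 and a 95% interval of 0.47 to 3.10 (edgeR adjusted p = 0.145). The median log2 fold change was 1.62 over the marker genes and −0.0069 over all genes tested. Shoot markers summed to between 46698 and 49592 TPM in jazQ and between 44702 and 47250 TPM in Col-0, and 0 of 12 shoot and 1 of 15 root markers were called in this comparison.

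The calls of VSP1 and CORI3 in jazQ depended on single libraries. VSP2 and CLH1 were called whichever of the 12 libraries was left out. CORI3 lost its call without Col-0 replicate 1 (edgeR adjusted p = 0.0553). VSP1 lost its call without Col-0 replicate 1 or 2, jazQ replicate 1 or 2, mycT replicate 2 or jazQ mycT replicate 2 (edgeR adjusted p = 0.0524 to 0.145). The mycT and jazQ mycT libraries are in neither compared group and entered only through the fit shared by all genotypes. Without jazQ replicate 3 all 5 genes were called, TAT3 with a log2 fold change of 2.24 (edgeR adjusted p = 0.0382). Without Col-0 replicate 1, 2 of 5 genes were called.

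**Figure D2:**
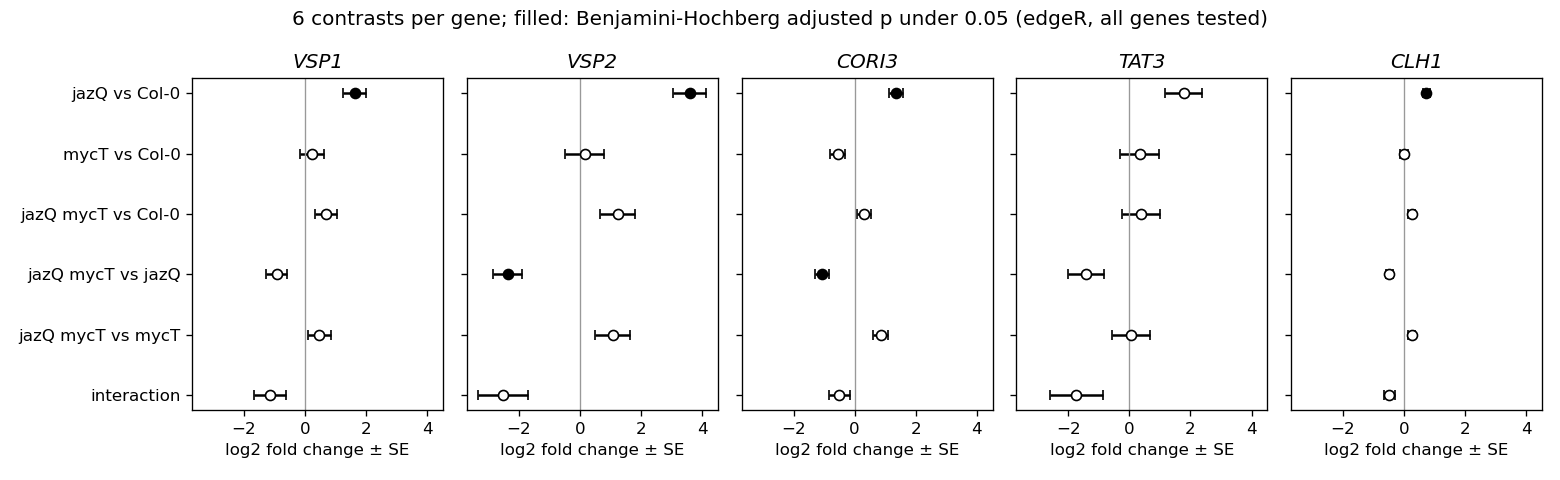
Log2 fold change ± SE (x axis) of the 5 marker genes, 1 panel each, in the 5 comparisons of genotypes and the interaction (y axis), where filled points have an adjusted p under 0.05 in edgeR's test. Filled points stand to the right for VSP1, VSP2, CORI3 and CLH1 in jazQ against Col-0 and to the left for VSP2 and CORI3 in jazQ mycT against jazQ.

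How far the level in jazQ needed MYC2, MYC3 and MYC4 was asked by comparing jazQ mycT with jazQ. VSP2 and CORI3 fell in jazQ mycT, to 0.194 and 0.482 of their level in jazQ, and the estimates of VSP1, TAT3 and CLH1 were also below 0 without passing the test. So 2 of 5 were called lower and 0 higher, where 0.876% of all genes tested were called lower and 1.33% higher. The log2 fold change of VSP2 was −2.37 (SE 0.48, edgeR adjusted p = 0.0211) and that of CORI3 −1.05 (SE 0.23, edgeR adjusted p = 0.0314). CLH1 had −0.48 (SE 0.12, edgeR adjusted p = 0.0536), with all jazQ mycT libraries 3.58 TPM or more below the lowest jazQ library. For VSP1 the value was −0.94 (SE 0.35, edgeR adjusted p = 0.225), and for TAT3 −1.41 (SE 0.59, edgeR adjusted p = 0.278). The median was −1.05 over the marker genes and −0.0065 over all genes tested. No call of VSP2 or CORI3 was left without jazQ replicate 1, without jazQ replicate 2, or without any one of the jazQ mycT libraries (edgeR adjusted p = 0.0727 to 0.137), whereas without jazQ replicate 3 VSP1, VSP2, CORI3 and CLH1 were called lower (log2 fold changes of −1.3, −2.81, −1.31 and −0.59). When the counts of VSP1 and VSP2 were summed, the pair rose in jazQ against Col-0 (log2 fold change 2.14, edgeR adjusted p = 0.0163) and was not called in jazQ mycT against jazQ (−1.37, edgeR adjusted p = 0.108).

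Whether a change relative to the wild type was left with both sets of genes mutated was asked by comparing jazQ mycT with Col-0. None of the 5 was called, although 5 of 5 estimates were above 0, where 2.81% of all genes tested were called higher and 2.68% lower. VSP2 had a log2 fold change of 1.23 with a 95% interval of −0.032 to 2.5 (edgeR adjusted p = 0.260). The intervals were −0.12 to 1.49 for VSP1, −0.21 to 0.81 for CORI3, −0.99 to 1.74 for TAT3 and −0.0087 to 0.51 for CLH1, and none of them excludes 0. At an unadjusted p under 0.05, 0 of 5 were past the threshold in edgeR's test, against 20.2% of all genes tested, and DESeq2 called 0. Without jazQ replicate 3 VSP2 was called (1.23, edgeR adjusted p = 0.0275). That library is in neither compared group, and the estimate stayed at 1.23. It entered only through the fit, which shares its estimate of the spread over all genotypes.

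The basal need for MYC2, MYC3 and MYC4 was asked by comparing mycT with Col-0. None of the 5 was called, where 0.957% of all genes tested were called higher and 0.847% lower, and 1 of 5 was under an unadjusted p of 0.05 in edgeR's test, as were 17.0% of all genes tested, with 0 called by DESeq2. That gene was CORI3, with a log2 fold change of −0.55 (SE 0.25, edgeR adjusted p = 0.284). VSP1 (0.22), VSP2 (0.15), TAT3 (0.33) and CLH1 (−0.0031) had estimates smaller than their SEs. In the same comparison 7 of 12 shoot markers and 0 of 15 root markers were called higher, with a median log2 fold change of 0.35 over the shoot list, and the shoot markers summed to between 51122 and 59852 TPM in mycT against 44702 to 47250 TPM in Col-0, a difference whose part in the marker values was not tested.

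The effect of the jaz mutations where MYC2, MYC3 and MYC4 are mutated was asked by comparing jazQ mycT with mycT. None of the 5 was called, with 5 of 5 estimates above 0, where 4.05% of all genes tested were called higher and 3.77% lower. CORI3 was nearest, with a log2 fold change of 0.85 (SE 0.24, edgeR adjusted p = 0.0535), and it was called by DESeq2 (0.86, adjusted p = 0.0349) and when the 2 genotypes were fitted alone (0.86, edgeR adjusted p = 0.00851). VSP2 had a value of 1.08 (SE 0.58, edgeR adjusted p = 0.284) and was called with these genotypes alone (1.08, edgeR adjusted p = 0.0081). VSP1 (0.47), CLH1 (0.25) and TAT3 (0.045) were not called in either fit. At an unadjusted p under 0.05, 1 of 5 was past the threshold, against 23.5% of all genes tested.

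Whether the loss of the MYC factors acted differently in these backgrounds was asked with an interaction term, in which the log2 fold change of mycT against Col-0 is subtracted from that of jazQ mycT against jazQ. It was below 0 for 5 of 5 genes and called for 0, where 0.469% of all genes tested were called above 0 and 0.110% below 0. VSP2 had the value of largest size, −2.52 (SE 0.81, edgeR adjusted p = 0.270). TAT3 (−1.74), VSP1 (−1.16), CORI3 (−0.50) and CLH1 (−0.48) followed, and 3 of 5 genes were under an unadjusted p of 0.05, as were 11.3% of all genes tested, while DESeq2 called 0. That the call of VSP2 and CORI3 in jazQ mycT against jazQ had no counterpart in mycT against Col-0 was therefore not shown to be a difference. Without jazQ replicate 3 the interaction of VSP2 was called (−2.97, edgeR adjusted p = 0.00877). Comparisons that set a mycT or jazQ mycT library against a jazQ or Col-0 library also cross the border between the series, and an effect of that border cannot be told apart from the genotype, whereas jazQ against Col-0 and jazQ mycT against mycT lie within 1 series each.

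The libraries of 1 genotype differed in a way that the marker genes shared. jazQ replicate 3 was the lowest of the 3 jazQ libraries for 5 of 5 marker genes, and it was the lowest for 38.1% of all genes tested. In jazQ replicates 1, 2 and 3, log2 levels relative to the Col-0 mean were 4.22, 3.78 and 1.65 for VSP2, 2.88, 2.17 and 0.11 for TAT3, and 0.82, 0.84 and 0.49 for CLH1. In the same libraries JAZ1 (5.28, 6.05 and 4.65 TPM) was below Col-0 (44.2 to 60.0 TPM) and JAZ10 (334, 288 and 337 TPM) above it (4.23 to 5.10 TPM). Its total of 14338359 counts was the lowest of the jazQ libraries, with 15408967 and 18297004 in the other libraries, and its summed root markers were also the lowest at 160 TPM. The part of these in the low marker values was not tested. jazQ mycT replicate 3, mycT replicate 1 and Col-0 replicate 1 were each the lowest library of their genotype for 4 of 5 marker genes, and for 34.4%, 32.6% and 32.8% of all genes tested. Over the jazQ libraries the SD of the log2 level was 1.37 for VSP2, 1.44 for TAT3, 0.94 for VSP1, 0.56 for CORI3 and 0.20 for CLH1, and at least 99.4% of 1000 genes of like level had a smaller SD for each of these but CLH1, where 84.7% had. In jazQ mycT the SD of VSP2 was 0.073 and 15.5% of genes of like level had a smaller one.

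**Figure D3:**
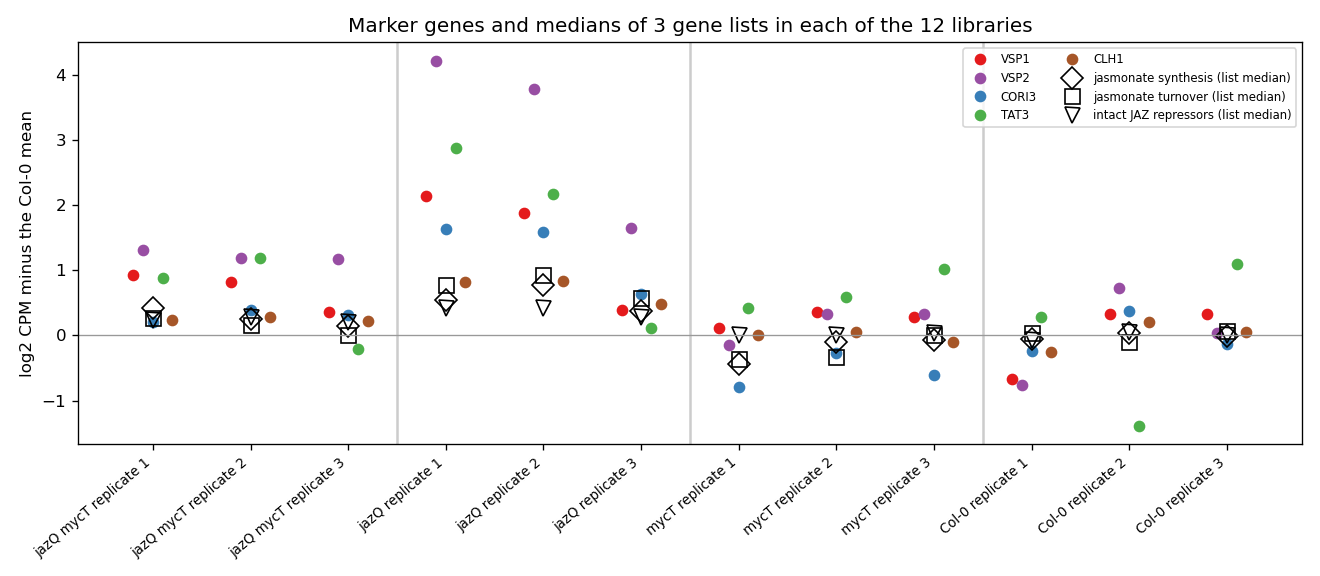
Log2 CPM minus the mean of the Col-0 libraries (y axis) in each of the 12 libraries (x axis), with filled points for the 5 marker genes and open symbols for the medians of 3 lists of jasmonate genes. In jazQ replicate 3 VSP2 lies at 1.65 and TAT3 at 0.11, below 4.22 and 2.88 in jazQ replicate 1, and the median of the jasmonate synthesis genes is 0.38, against 0.55 and 0.77 in replicates 1 and 2.

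**Figure D4:**
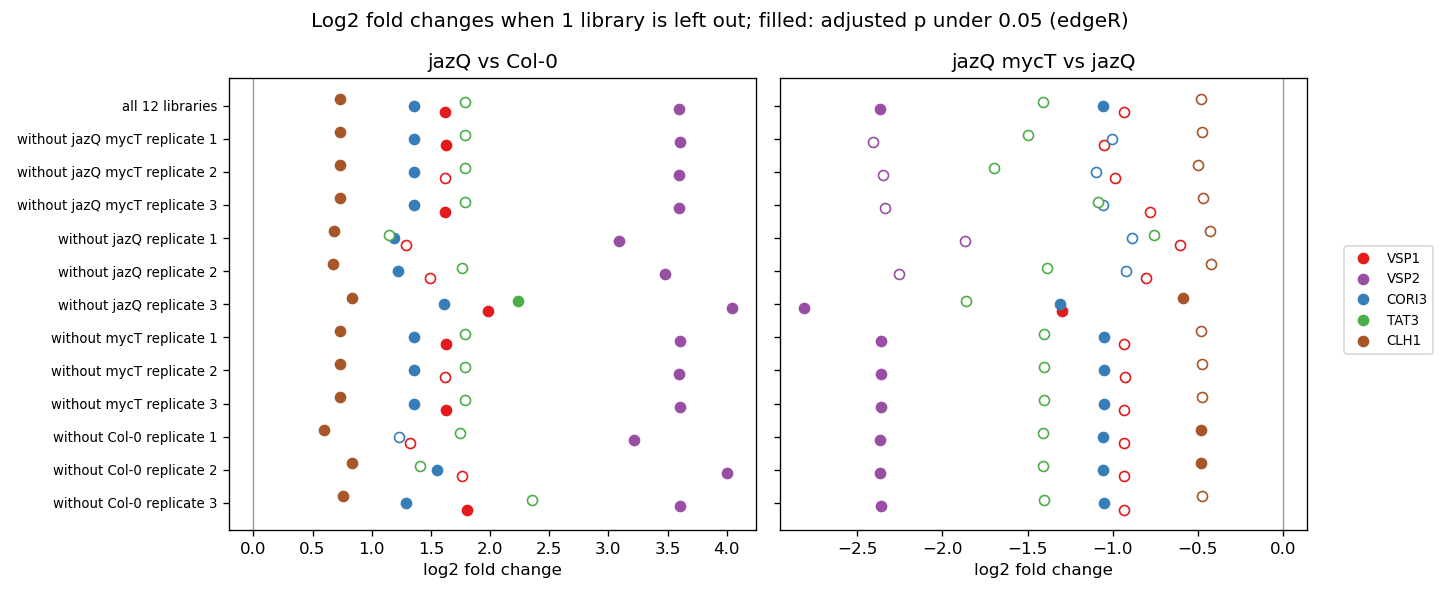
Log2 fold changes (x axis) of the 5 marker genes with all 12 libraries and without each library in turn (y axis), for jazQ against Col-0 on the left and jazQ mycT against jazQ on the right, filled where the adjusted p in edgeR's test is under 0.05. VSP2 stays between 3.09 and 4.05 on the left, and between −2.81 and −1.87 on the right, where its call is lost without jazQ replicate 1 or 2 or any jazQ mycT library.

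Relatives of the marker genes were examined to see whether whole families moved. Among 7 tested acid phosphatase genes most like VSP1 and VSP2, 0 were called in jazQ against Col-0, with log2 fold changes of −0.094 to 0.36, and 0 in jazQ mycT against jazQ. Several of them were more abundant than the VSP genes, such as AT5G44020 at 534 ± 92.4 TPM in jazQ mycT, 631 ± 32.1 TPM in jazQ, 514 ± 39.0 TPM in mycT, against 562 ± 32.1 TPM in Col-0 (SD, n = 3 each). AT2G39920 was called once, lower in jazQ mycT against Col-0 (log2 fold change −0.62). AT2G38600, an eighth relative, was at 0.35 to 1.77 TPM and was not tested.

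In the tyrosine aminotransferase family, AT4G23590, the gene directly next to CORI3 and 79.1% identical to it in coding sequence, rose in jazQ (log2 fold change 1.05, edgeR adjusted p = 0.0487). It was at 2.54, 2.1 and 3.14 TPM in jazQ mycT, 2.20, 2.64 and 3.96 TPM in jazQ, 0.90, 1.70 and 1.31 TPM in mycT, against 1.42, 1.3 and 1.45 TPM in Col-0. It had a log2 fold change near 0 in jazQ mycT against jazQ (−0.052, edgeR adjusted p = 0.948) and was higher in jazQ mycT against Col-0 (1.00, edgeR adjusted p = 0.0382), and its jazQ replicate 3 was the highest of the 3. SUR1, a C-S lyase of glucosinolate synthesis, was at 21.5 ± 1.17 TPM in jazQ mycT, 44.7 ± 4.60 TPM in jazQ, 18.2 ± 1.66 TPM in mycT, against 44.5 ± 8.97 TPM in Col-0 (SD, n = 3 each). It fell in mycT against Col-0 (log2 fold change −1.2, edgeR adjusted p = 0.000305) and in jazQ mycT against jazQ (−0.96, edgeR adjusted p = 0.000914), with a value of 0.010 in jazQ against Col-0. TAT7, AT5G36160 and AT4G28410 were not called in any comparison, and AT4G28420 had at most 4 counts in a library. CLH2, the other chlorophyllase gene, was at 1.95 ± 0.217 TPM in jazQ mycT, 2.55 ± 0.349 TPM in jazQ, 3.22 ± 0.615 TPM in mycT, against 3.03 ± 0.427 TPM in Col-0 (SD, n = 3 each), and was called only in jazQ mycT against mycT (log2 fold change −0.73, edgeR adjusted p = 0.0453).

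**Figure D5:**
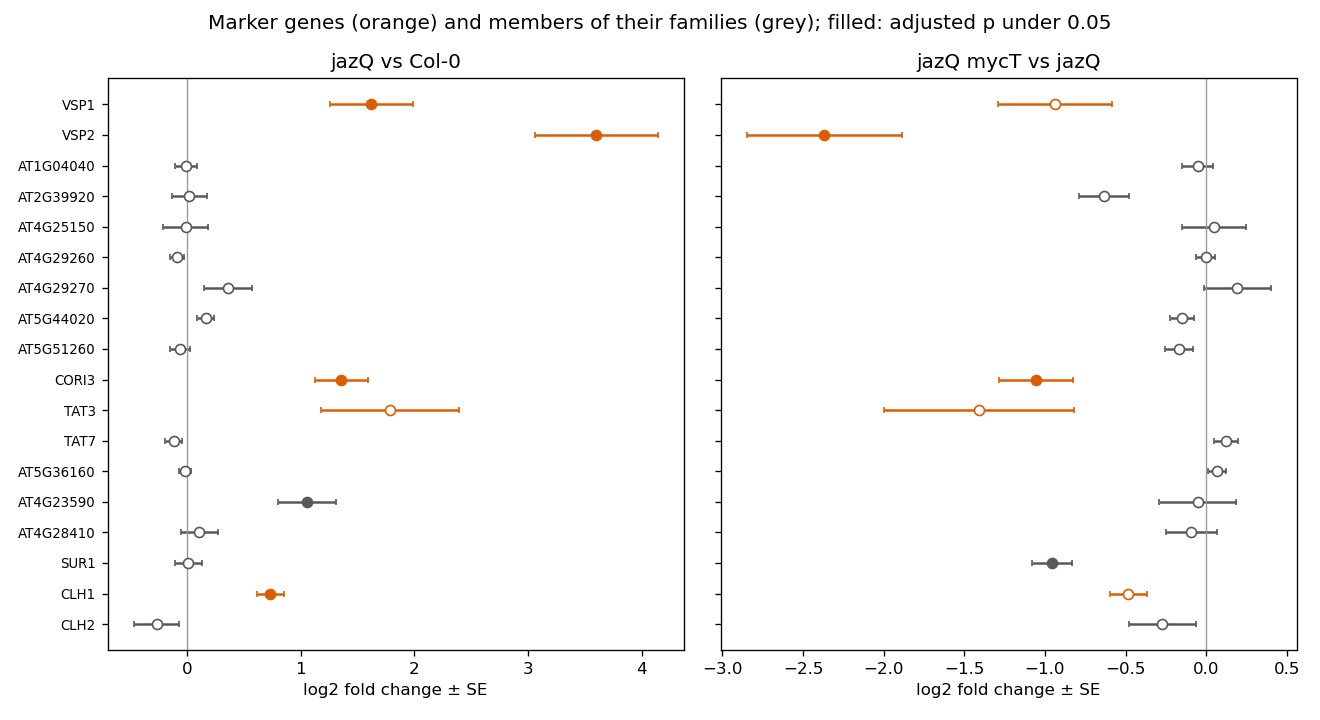
Log2 fold change ± SE (x axis) of the marker genes, in orange, and of the tested relatives in their families, in grey, for jazQ against Col-0 on the left and jazQ mycT against jazQ on the right, filled where the adjusted p in edgeR's test is under 0.05. On the left the only filled grey point is AT4G23590 at 1.05, and on the right it is SUR1 at −0.96.

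Of 25 genes that are among the 3 nearest annotated genes on either side of a marker gene, 21 were in the deposited table and 16 were tested. In jazQ against Col-0, 1 was called higher, AT4G23590, and 0 lower, with log2 fold changes of −0.89 to 1.05. None was called in mycT against Col-0 or in jazQ mycT against jazQ. In jazQ mycT against Col-0 AT4G23590 was higher and ATBZIP9, a neighbour of VSP1, was lower (log2 fold change −0.41, edgeR adjusted p = 0.00506). The 6 neighbours of CLH1, the marker nearest to a mutated gene, had log2 fold changes of −0.22 to 0.21 in jazQ and were not called.

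The markers were set beside other genes of the jasmonate pathway. Of 12 synthesis genes, 7 rose in jazQ against Col-0 and 0 fell, with a median log2 fold change of 0.51, and 3 fell in jazQ mycT against jazQ. OPR3, the reductase that acts on the jasmonate precursor in peroxisomes, was at 17.3, 19.9 and 18.0 TPM in jazQ mycT, 34.0, 37.8 and 34.2 TPM in jazQ, 12.8, 11.8 and 13.8 TPM in mycT, against 16.8, 17.9 and 16.4 TPM in Col-0. Every jazQ library lay above every library of the other genotypes, and the log2 fold change was 1.08 in jazQ (edgeR adjusted p = 7.83e-06). LOX2, a plastid lipoxygenase, rose by 1.64 in jazQ (edgeR adjusted p = 0.000918), with 91.0 TPM in jazQ replicate 3 against 148 and 180 TPM in replicates 1 and 2. The allene oxide cyclases AOC1 (0.90) and AOC2 (0.62) rose in jazQ and fell in jazQ mycT against jazQ (−0.81 and −0.98), and AOC2 also fell in mycT against Col-0 (−0.83).

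Of 7 tested genes of jasmonate turnover, 5 rose in jazQ against Col-0, with a median over the list of 0.70, and 4 fell in jazQ mycT against jazQ. The jasmonate oxidases JOX3 and JOX4 had log2 fold changes of 2.47 and 2.52 in jazQ and of −1.56 and −3.26 in jazQ mycT against jazQ. JOX2 had 0.70 in jazQ and ILL6, an amidohydrolase that cleaves the isoleucine conjugate, had 1.2 in jazQ and −1.07 in jazQ mycT against jazQ. Of 6 tested JAZ genes that are intact in all lines, JAZ5 (2.07), JAZ2 (0.48) and JAZ12 (0.28) rose in jazQ. JAZ6 rose in jazQ mycT against jazQ (0.66) and JAZ7 fell (−1.58).

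Of 10 tested genes from a list of 14 other wound and jasmonate markers, 1 was called in jazQ against Col-0. Only 5 of the 10 log2 fold changes were above 0, with a median of 0.13 and a range of −1.24 to 3.40. The called gene was ARGAH2, an arginase gene, with a log2 fold change of 1.29 (edgeR adjusted p = 2.76e-05). It was at 84.5, 117 and 114 TPM in jazQ mycT, 156, 131 and 115 TPM in jazQ, 61.1, 59.3 and 58.9 TPM in mycT, against 53.3, 56.7 and 54.7 TPM in Col-0, and it was also higher in jazQ mycT against Col-0 (1.05, edgeR adjusted p = 0.000103). NATA1, an acetyltransferase that acts on ornithine, had 3, 6 and 2 counts in jazQ mycT, 204, 76 and 10 counts in jazQ, 5, 4 and 17 counts in mycT, and 16, 2 and 14 counts in Col-0. It fell in jazQ mycT against jazQ (edgeR adjusted p = 0.0219) and, like the 5 marker genes, was lowest of the jazQ libraries in replicate 3. TI1, a trypsin inhibitor gene, rose in jazQ mycT against jazQ (0.59, edgeR adjusted p = 0.0465).

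The ethylene branch of jasmonate signalling activates plant defensins and other antimicrobial genes. Of 6 tested genes of it, 0 rose and 1 fell in jazQ against Col-0, and 5 rose in jazQ mycT against jazQ. ORA59, a transcription factor of this branch, was at 7.11, 6.23 and 5.93 TPM in jazQ mycT, 1.94, 3.20 and 1.54 TPM in jazQ, 9.20, 8.06 and 4.78 TPM in mycT, against 6.40, 5.92 and 4.96 TPM in Col-0. It fell in jazQ against Col-0 (−1.37, edgeR adjusted p = 0.0280) and rose in jazQ mycT against jazQ (1.64, edgeR adjusted p = 0.0086). The plant defensin PDF1.2 had 74, 80 and 150 counts in jazQ mycT, 3, 0 and 1 counts in jazQ, 123, 145 and 83 counts in mycT, and 5, 3 and 40 counts in Col-0. PDF1.2b had no count in any jazQ library and 30, 20 and 40 counts in jazQ mycT. PR4, a chitin-binding defence protein, rose in jazQ mycT against jazQ (0.92, edgeR adjusted p = 0.0014).

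TAT3 and CLH1 belong to enzyme families of tyrosine and chlorophyll breakdown. Of 10 tested genes of tyrosine breakdown and tocopherol synthesis, and of 9 of chlorophyll breakdown, 0 and 0 were called in jazQ against Col-0, with medians of 0.14 and −0.022. In jazQ mycT against jazQ, GSTZ1, which acts in tyrosine breakdown, rose (0.49, edgeR adjusted p = 0.00039), and NYC1, a chlorophyll b reductase, fell (−0.57, edgeR adjusted p = 0.0127). NYC1 was also lower in every mycT library (115, 124 and 110 TPM) than in every Col-0 library (176, 192 and 158 TPM).

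Across the 12 libraries the log2 CPM of VSP2 and CLH1 had a Pearson r of 0.972, the highest of the 10 pairs of marker genes, and those of CORI3 and TAT3 one of 0.504, the lowest. All pairs with TAT3 lay between 0.504 and 0.739, and all others between 0.838 and 0.972. These values are descriptions over 12 libraries that share genotypes and depth, and carry no p. The genes whose profile was most like the mean of the 5 standardised marker profiles were AT1G24320, annotated as a glycosidase (r = 0.949), the cellulose synthase-like gene ATCSLA10 (0.947), the xyloglucan xylosyltransferase gene XXT5 (0.941), RXGT1, annotated as a xylosyltransferase of rhamnogalacturonan (0.939), and the lipoxygenase gene LOX1 (0.939). Of these, AT1G24320, ATCSLA10 and LOX1 were called higher in jazQ against Col-0, with log2 fold changes of 1.15, 0.93 and 0.77. VSP1 was most like ATCSLA10 (0.975), VSP2 (0.950) and PGL4 (0.932), and CORI3 was most like AT1G24320 (0.978), TSA1 (0.970) and the jasmonate-responsive lectin gene JR1 (0.970). VSP2 and CLH1 were each other's nearest profile, followed for both by AT2G43530, annotated as a knottin, and AT1G24320 (0.954 to 0.956). TAT3 was nearest to LWD2 (0.907), AT2G31600 (0.898) and AT3G59300 (0.892), none of which was called in jazQ.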

How the data were processed

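RNA from whole 8-d-old seedlings was sequenced as 50-base single-end reads in 12 libraries, 3 for each of 4 genotypes. The authors mapped filtered reads to TAIR10 gene models with RSEM 1.2.11 and deposited its estimated counts, which are whole numbers as deposited, and, in another table, its TPM values, a transcript level corrected for length and depth. TPM was used for levels and the counts for tests. Samples were grouped by the genotype in their labels.

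Counts were tested with edgeR 4.0.16 (R 4.3.3) after TMM scaling and filterByExpr, which kept 20888 of 33602 genes, with 1 term per genotype over all 12 libraries and Benjamini-Hochberg adjustment over the genes tested at 0.05. edgeR was used as the main test in place of the DESeq of the study's methods. Alternatives were DESeq2 1.42.0, limma 3.58.1 on log2(TPM + 1) or log2(TPM + 0.1) with a minimum mean of 1 TPM or none, other scaling and filters, a threshold of 0.01, the compared genotypes alone, a replicate block, VSP1 and VSP2 summed, and each library left out. Tested on simulated data for jazQ against Col-0 (20768 genes), the fit recovered 88 of 100 genes changed 2-fold and 95 of 100 changed 4-fold. Of its 197 calls, 14 were false. The simulated spread was that typical of genes of like level. VSP1, VSP2, CORI3 and TAT3 varied more than that in jazQ, so these rates do not carry over to them.

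The libraries are independent samples per the labels, but the labels do not say what a replicate number marks. Same-numbered libraries deviated together in every pair only for mycT and Col-0 (correlations of 0.251, 0.134 and 0.307). The main test had no replicate block there either, so its values are unpaired. A block over all genotypes was an alternative, and with it no marker gene was called in mycT against Col-0. Pairs of libraries of 1 genotype differed by more than sampling noise (chi-square per degree of freedom of 3.48 to 98.9). The largest values were those of jazQ mycT replicate 1 (82.7 and 98.9) and mycT replicate 1 (43.2 and 31.0), and no other pair exceeded 14.65. jazQ mycT replicate 1 also had the lowest sum of shoot markers of the 12 libraries (42077 TPM).

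Upstream sequence, exons and neighbours came from RefSeq TAIR10.1, read with Biopython 1.88. The marker genes and the gene lists were chosen with earlier results of these data known. Named were the 5 marker genes, at most 4 called genes per list by smallest adjusted p in jazQ against Col-0 or jazQ mycT against jazQ, all relatives, 3 neighbours on each side, the genes most like them, and the mutated genes. Other genes named were chosen after their values were seen.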

Additional observations from a re-analysis of the deposited data

Results flagged for a closer look

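Among the marker genes and the genes of the lists, 2 had an interaction past the threshold in edgeR's test, so that the effect of the myc mutations differed between the jaz mutant background and the wild type. GSTZ1, which acts in tyrosine breakdown, differed by 0.49 on the log2 scale in jazQ mycT against jazQ and by −0.039 in mycT against Col-0, and the interaction was 0.529 (edgeR adjusted p = 0.00926). JAZ3, itself disrupted in jazQ, had an interaction of −1.203 (edgeR adjusted p = 0.0133). None of the 5 marker genes had an interaction past the threshold with all libraries.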

How the results depend on the processing

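Of the 5 marker genes, the number called in jazQ against Col-0 was 4. It was 3, without VSP1, at an adjusted p under 0.01, with the compared genotypes alone (edgeR adjusted p = 0.0969) and with limma-trend on log2(TPM + 1) or log2(TPM + 0.1) with a filter (limma adjusted p = 0.0610 and 0.0638). It was 2 (VSP2 and CLH1) with limma-trend on log2(TPM + 1) without a filter, and 2 to 5 when a library was left out. In jazQ mycT against jazQ it was 2 in the main fit, and 1 with VSP1 and VSP2 summed. It was 0 at an adjusted p under 0.01, with the compared genotypes alone, or with limma-trend on log2(TPM + 1) without a filter. When a library was left out it was 0 to 4. With limma-trend on log2(TPM + 1) or log2(TPM + 0.1) with a filter it was also 2, but these were CORI3 and CLH1, and VSP2 was not called (limma adjusted p = 0.0561 and 0.0686). CLH1, not called in the main fit, was called there in 5 of the 11 alternatives other than leaving out a library. Where VSP2 and CORI3 were called as well, the count was 3. In jazQ mycT against mycT it was 0, but 1 without a filter on low counts, 1 with DESeq2, 2 with the compared genotypes alone, and 0 to 2 when a library was left out. It was 0 to 1 in jazQ mycT against Col-0 and 0 to 1 for the interaction when a library was left out. The replicate block called 1 gene in jazQ mycT against mycT (CORI3, log2 fold change 0.88, edgeR adjusted p = 0.0258) and 3 in jazQ mycT against jazQ, where CLH1 was added (−0.48, edgeR adjusted p = 0.0490), and changed no other call of a marker gene. The cause of these changes was not tested.

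Uncalled estimates changed sign. In mycT against Col-0, leaving out a library gave −0.074 to 0.40 for VSP1, −0.23 to 0.56 for VSP2, −0.045 to 0.90 for TAT3 and −0.13 to 0.098 for CLH1. TAT3 gave −8.8e-05 to 0.95 in jazQ mycT against Col-0 and −0.25 to 0.37 in jazQ mycT against mycT, where limma-trend gave −0.045 on log2(TPM + 1), with and without a filter, and −0.061 on log2(TPM + 0.1). With 3 libraries per genotype, the SD of the log2 level over jazQ libraries, up to 1.44, limits what could be called, the fewest counts behind a value were 28, and VSP1 and VSP2 may share reads.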
